A study of Mus musculus with 2 samples.

Results

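The cells described here are Xcr1 type conventional dendritic cells, a class of antigen-presenting cell found among mouse lung cells sorted for Epcam. A barcode was a member when its raw counts of unique molecular identifiers (UMIs) for Xcr1, Irf8 and Naaa summed to at least 6. It also had to hold fewer than 3 UMIs of Cd209a and Mgl2, fewer than 5 of Ear1, Ear2 and Marco, fewer than 5 of Ccr7, Il4i1 and Fscn1, and fewer than 3 of Mki67 and Top2a. Per 10000 UMIs, Sftpc had to be below 500, Scgb1a1 below 1000 and the ciliated cell genes Foxj1, Ccdc153 and Tmem212 below 10. This gave 335 members among 6983 barcodes, 152 of 3685 in the NAPH library and 183 of 3298 in the Control library.

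Both libraries came from lung epithelium of adult C57BL/6 mice, sorted by flow cytometry for Epcam, with 3' ends of RNA from single cells counted in droplets. The NAPH library was made after an injury that the labels give only by that abbreviation, and the Control library carries no treatment in its labels. No label states how much was given, when the lung was taken or how many animals were used. Each group is 1 library, so differences have no replicate check and were not tested. Each ratio is NAPH over Control for these libraries, and the ranges in parentheses are exact 95% intervals that cover counting error only.

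Conventional type 1 dendritic cells depend on the transcription factors Irf8 and Batf3, take up material from dying cells, and present its antigens on MHC class I to CD8 T cells. They carry the chemokine receptor Xcr1, through which they meet lymphocytes that release the ligand Xcl1. In mouse lung they lie close to the airway epithelium and typically carry the integrin Itgae (CD103) and the lectin Cd207 (langerin).

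About as many members held a UMI of Cd207 as did not. Its promoter is shown because, among the 15 identity genes described next, it alone held a joined AP-1 and IRF motif. Batf3 and Irf8 are known to share this kind of site. A list of 20 identity genes that the membership rule did not use had 15 members in the RefSeq promoter table (GRCm38.p6), which spans 250 bases before to 50 bases after each gene's start. Both strands were searched for the IRF half-site GAAA followed directly by TGANTCA, which was found in 41 of 32851 promoters (0.125%), and for the AP-1 motif TGANTCA alone, which the longer one contains, found in 2565 (7.81%). Of the 15 identity genes, Cd207 held the longer motif, and Cd207 and Plet1 held the shorter. Capitals mark the matches in the promoters of Cd207 (chr6:83677808-83678107, minus strand) and Plet1 (chr9:50494275-50494574, plus strand). A match describes the letters in this window and says nothing of binding.
Cd207: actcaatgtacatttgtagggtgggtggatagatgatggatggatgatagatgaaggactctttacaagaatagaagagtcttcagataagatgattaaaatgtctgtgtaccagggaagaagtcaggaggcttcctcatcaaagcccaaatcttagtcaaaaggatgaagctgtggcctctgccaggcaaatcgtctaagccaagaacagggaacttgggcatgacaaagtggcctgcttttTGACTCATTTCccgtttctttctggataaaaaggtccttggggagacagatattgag
Plet1: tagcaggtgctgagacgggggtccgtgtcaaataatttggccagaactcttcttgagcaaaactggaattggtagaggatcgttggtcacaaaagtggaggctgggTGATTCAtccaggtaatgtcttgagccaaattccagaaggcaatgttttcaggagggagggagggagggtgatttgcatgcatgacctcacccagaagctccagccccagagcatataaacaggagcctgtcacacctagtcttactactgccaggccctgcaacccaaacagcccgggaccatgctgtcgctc

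Members made up 4.12% (3.51 to 4.82) of NAPH barcodes and 5.55% (4.79 to 6.39) of Control barcodes, a ratio of shares of 0.743 (0.596 to 0.927). When a member also had to hold at least 1 Xcr1 UMI, the ratio was 0.775 (0.595 to 1.01), an interval that includes 1. Such shares depend on the Epcam sort and on how many other cells each library caught. Among 4 myeloid groups (the members, mature dendritic cells with Ccr7, Il4i1 and Fscn1, cells with Cd209a and Mgl2, and alveolar macrophages), members were 152 of 359 in NAPH (42.3%) and 183 of 371 in Control (49.3%). That ratio was 0.858 (0.688 to 1.07), so it did not differ from 1 beyond counting error. These comparison groups still held barcodes with at least 6 UMIs of the choosing genes. Of all barcodes with that many, 13 in NAPH and 36 in Control also reached the limit for Cd209a and Mgl2, some of them outside the comparison groups by other limits. After these were seen, barcodes with at least 6 UMIs of the choosing genes were left out of both dendritic comparison groups. The Cd209a and Mgl2 group then fell from 151 to 144 cells in NAPH and from 87 to 55 in Control. The ratio for members was then 0.797 (0.639 to 0.994). Whether the interval includes 1 thus turns on that later choice. The groups with this limit are used below, and values without it are given for some results.

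**Figure D1:**
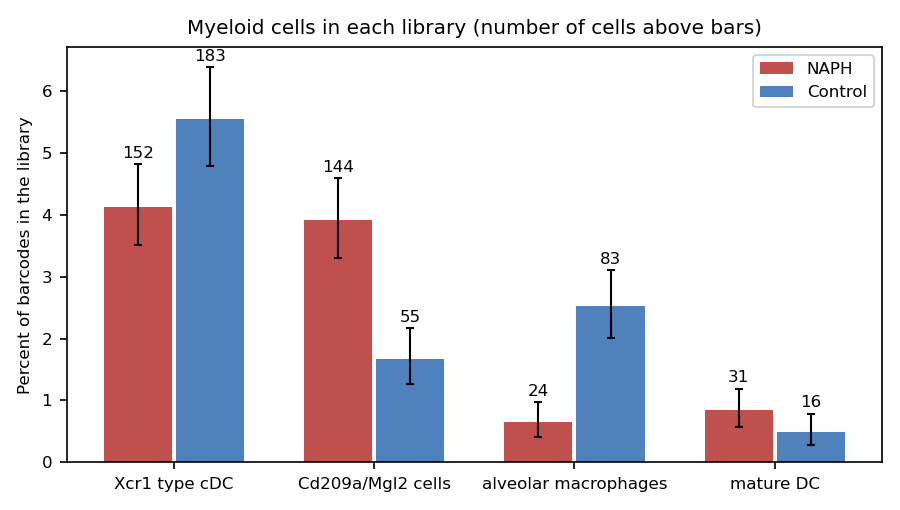
Percent of all barcodes in each library that fell into 4 myeloid groups, NAPH left of Control, with exact binomial 95% intervals and cell numbers above the bars. The mature and Cd209a/Mgl2 groups leave out barcodes with at least 6 choosing UMIs, and as first computed held 32 and 151 cells in NAPH and 18 and 87 in Control. The bars for Xcr1 type cells stand at 4.12% in NAPH and 5.55% in Control.

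Depth was close in both sets of members, with a median of 9089 UMIs and 2162 genes in NAPH and 8096 UMIs and 2029 genes in Control. Mitochondrial RNA had medians of 2.19% and 2.13% in NAPH and Control members. Summed over members there were 1430280 UMIs in NAPH and 1524094 in Control. The libraries shared 14 barcodes, of which 1 belonged to a member, and no barcode was a member in both. Free RNA from epithelium reached the members: 9 epithelial genes stood at 2.36 to 3.995% of their level in other barcodes in NAPH and at 1.93 to 3.01% in Control. Sftpc, the surfactant gene of alveolar type 2 cells, was at 3957 CPM (UMIs of the gene per 1000000 UMIs of the members) in NAPH members and 1839 CPM in Control members, and the club cell gene Scgb1a1 at 2374 and 12407 CPM in NAPH and Control.

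The values that chose the members are given as a description. Irf8 was detected in 98.7% of NAPH and 100% of Control members, Naaa, a lysosomal hydrolase, in the same shares, and Xcr1 in 72.4% and 69.4% in NAPH and Control. Barcodes with 6 to 8 choosing UMIs, just inside the threshold, numbered 9 in NAPH and 7 in Control, with medians of 13 and 25 UMIs summed over the 20 identity genes. Just outside, with 3 to 5 choosing UMIs, were 15 NAPH and 9 Control barcodes, with medians of 4 and 10. Cst3, which conventional dendritic cells express at high level, had medians of 98 and 284 UMIs inside and 4 and 6 outside, in NAPH and Control.

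Of the NAPH members, 3 went against the label. They held 91, 83 and 66 UMIs of Lyz2 against 4, 11 and 4 of Cst3, had at most 1 Irf8 UMI and no Xcr1 UMI, and carried the macrophage genes Mrc1 and Cxcl2. A further 2 NAPH members and 1 Control member held at least 5 UMIs of the keratins Krt8 and Krt18. These 6 barcodes stand apart, and values without them are given wherever they matter. Chil3, a chitinase-like gene of alveolar macrophages with the near copy Chil4, had 157 UMIs in NAPH and 9 in Control, a ratio of 18.6 (9.55 to 41.4). Of the NAPH UMIs 96.8% lay in 3 cells, and without the 6 barcodes the ratio was 0.979.

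All 20 identity genes were detected in the members of both libraries, and their summed level was 3735 CPM in NAPH and 3528 CPM in Control. Because the members were chosen on related genes, the levels in other cells are a description. Clec9a, a receptor for dead cells, was at 107 CPM in NAPH members and 117 CPM in Control members, against 0.946 and 4.95 CPM in Cd209a and Mgl2 cells of the NAPH and Control libraries. Cd207 stood at 161 CPM in NAPH members and 167 CPM in Control members, and was not detected in alveolar macrophages of either library. Mature dendritic cells had no UMI of Clec9a or Cd207 in NAPH, but 9 UMIs of Clec9a (74.3 CPM) and 12 of Cd207 (99.0 CPM) in Control. Not every identity gene was highest in members. Ly75 was at 16.1 CPM in NAPH members and 10.5 CPM in Control members, against 118 and 109 CPM in alveolar macrophages. Cadm1 was at 106 and 132 CPM in NAPH and Control members, against 126 and 93.3 CPM in epithelial barcodes. Plet1 was also higher in alveolar macrophages, as given below. Of 951 genes with at least 100 CPM in members of both libraries, 12 (1.26%) were at least 5 times as high in members as in the other 3 myeloid groups summed, in each library. Beyond the choosing genes and identity genes, these were Cxx1b and Klf2, a transcription factor. The choosing genes Xcr1 and Irf8 are among the 12, and both dendritic comparison groups leave out barcodes with at least 6 choosing UMIs. The count is thus set in part by the rules, and it was not made without that limit. Klf2 was at 136 CPM in NAPH members and 212 CPM in Control members, against 27.2 and 38.8 CPM in the other myeloid cells of NAPH and Control.

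**Figure D2:**
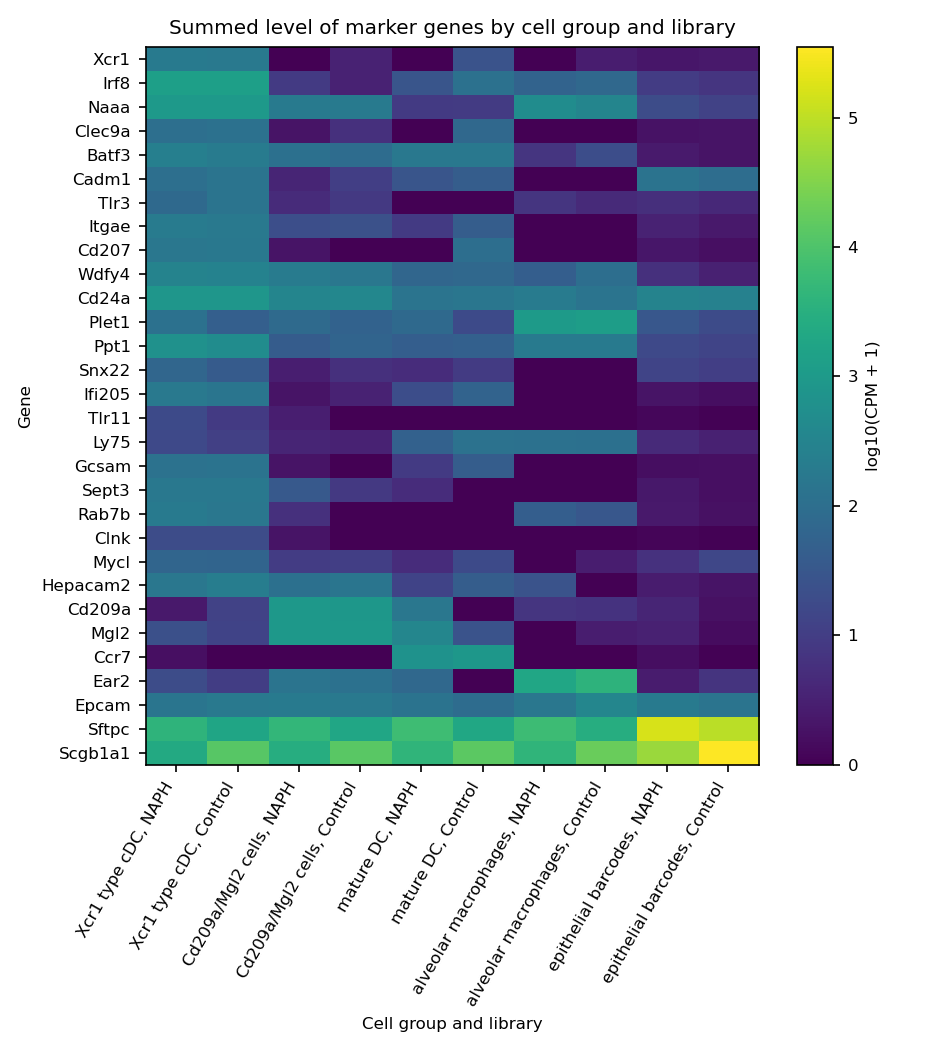
Summed level of marker genes, as log10(CPM + 1), in members, 3 other myeloid groups and epithelial barcodes, with NAPH left of Control in each pair. Xcr1, Irf8, Clec9a and Cd207 are high in members, while Sftpc and Scgb1a1 are present in every group and highest in epithelial barcodes.

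Epcam, the protein of the sort, was among the RNAs of these cells. It was at 139.8 CPM in NAPH members and 173.2 CPM in Control members, a ratio of 0.807 (0.668 to 0.974), against 180.4 and 133.1 CPM in epithelial barcodes of NAPH and Control. At least 1 Epcam UMI was found in 92 of 152 NAPH members (60.5%) and 110 of 183 Control members (60.1%). The other myeloid groups held Epcam RNA as well. It was at 189 CPM in NAPH and 173 CPM in Control in cells with Cd209a and Mgl2, at 156 and 353 CPM in alveolar macrophages of NAPH and Control, and at 126 and 90.8 CPM in mature dendritic cells of NAPH and Control.

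Identity genes passed the limit, in one direction or the other, about as often as all genes did. At the 1.5-fold limit used throughout, 4 of the 20 were higher in NAPH, 1 was lower and 15 lay between, with a median log2 ratio of 0.06. Over all 8836 genes with at least 10 UMIs, 12.8% were higher and 12.5% lower, with a median of 0.01. Batf3 had 347 UMIs in NAPH and 300 in Control (1.23, 1.05 to 1.44), and the cross-presentation gene Wdfy4 had 425 and 437 in NAPH and Control (1.04, 0.905 to 1.19). Neither passed the limit. Itgae had 288 UMIs in NAPH and 263 in Control (1.17, 0.984 to 1.38), an interval that includes 1.

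Plet1, a surface protein, was the identity gene with the highest ratio, at 115 CPM in NAPH and 46.6 CPM in Control (2.46, 1.85 to 3.30). It was found in 70 of 152 NAPH members and 31 of 183 Control members. After each cell was thinned to 4000 UMIs, which left out 1 NAPH cell, the shares were 27.8% in NAPH and 13.1% in Control. Of the Plet1 UMIs in members, 18.9% in NAPH and 35.2% in Control lay in 3 cells. The ratio in members without the barcodes that stand apart was 2.31. Alveolar macrophages held far more Plet1, 1060 CPM in NAPH and 1250 CPM in Control, and the part of macrophage RNA in the members' values was not tested. Snx22, a sorting nexin, was at 65.0 CPM in NAPH and 38.1 CPM in Control (1.71, 1.22 to 2.41). The other genes past the limit were Tlr11, with 24 and 12 UMIs in NAPH and Control, and Ly75, an uptake receptor with 23 and 16, whose interval includes 1 (0.775 to 3.10).

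Tlr3, the endosomal sensor of double-stranded RNA, was the identity gene past the limit in the other direction. It was at 79.0 CPM in NAPH members and 137 CPM in Control members (0.576, 0.454 to 0.728), and in 17.9% and 42.1% of thinned cells in NAPH and Control. Unc93b1, which carries endosomal Toll-like receptors to their compartment, was at 192 CPM in NAPH and 259 CPM in Control (0.741, 0.633 to 0.867), short of the limit. Of 18 innate sensing genes with at least 10 UMIs, 5 were higher and 2 lower, beside 12.8% and 12.5% of all genes, with a median log2 ratio of 0.09. Tmem173 (STING) was among the higher genes, at 38.5 CPM in NAPH and 19.0 CPM in Control (2.02, 1.27 to 3.29), and the adaptor Myd88 another, at 43.3 and 26.3 CPM in NAPH and Control (1.65, 1.09 to 2.52). Cd14 had 27 UMIs in 23 NAPH cells and 1 UMI in Control, a ratio of 28.8 with a wide interval (4.74 to 1178).

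Across all 4510 genes with at least 50 UMIs, 219 (4.86%) were at least 1.5 times higher in NAPH members and 238 (5.28%) at least 1.5 times lower, with a median log2 ratio of 0.00. Genes were named among those with at least 100 CPM in a library that lay outside the reach of free RNA. Sftpc (2.15, 2.06 to 2.25) and Scgb1a1 (0.191, 0.184 to 0.198) were passed over on that ground, although their bounds lie beyond those of the genes named first below. Apart from Chil3, the highest gene so named, by the bound of its interval nearest to 1, was Dnase1l3, a secreted DNase. It was at 110 CPM in NAPH members and 41.3 CPM in Control members (2.66, 1.97 to 3.62), and in 59 NAPH and 47 Control cells. Tgfb1, the cytokine that also drives Itgae, was at 198 CPM in NAPH and 95.8 CPM in Control (2.07, 1.69 to 2.54), and in 121 of 152 and 98 of 183 cells of NAPH and Control. The higher level was thus spread over many cells. Its receptor Tgfbr1 was at 32.9 CPM in NAPH and 68.9 CPM in Control (0.477, 0.331 to 0.679).

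The cell cycle inhibitor Cdkn1a was at 109 CPM in NAPH and 50.5 CPM in Control (2.16, 1.63 to 2.88), and at 1.69 times the Control level without the barcodes that stand apart. Picalm, an endocytic adaptor, had a ratio of 1.87 (1.46 to 2.42), Ndufa4, of the respiratory chain, 1.79 (1.502 to 2.13), Gatm 1.66 (1.34 to 2.07) and the galectin Lgals1 1.63 (1.44 to 1.85). Actb, Ifi30 and Tspo, also named by the same rule, stayed below the limit, with ratios of 1.32, 1.49 and 1.48.

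The lowest gene so named was Ccnd2, a cyclin that drives entry into the cell cycle, at 29.4 CPM in NAPH members and 138 CPM in Control members (0.212, 0.149 to 0.297). It was found in 20 of 152 NAPH members and 80 of 183 Control members. The membership rule caps Mki67 and Top2a, and 32 NAPH and 49 Control barcodes with enough choosing UMIs reached that cap. Members still held 6 and 8 UMIs of Mki67 and 8 and 12 of Top2a in NAPH and Control. Of 9 genes of the G2 and M phases with at least 10 UMIs, 5 were higher and none lower in NAPH, beside 12.8% and 12.5% of all genes, with a median log2 ratio of 0.71, or 0.49 without the barcodes that stand apart. Of 22 S phase genes 1 was higher and 6 were lower, with a median of -0.16. Ifi27l2a, an interferon-inducible gene, was at 49.6 CPM in NAPH and 211 CPM in Control (0.236, 0.180 to 0.306), and in 31 and 96 cells of NAPH and Control.

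Rac2, a GTPase of the phagocyte oxidase, was at 48.9 CPM in NAPH and 123 CPM in Control (0.397, 0.297 to 0.525). Fcer1g, the signalling chain of Fc receptors, was at 124 CPM in NAPH and 257 CPM in Control (0.481, 0.401 to 0.576). Ccl6, a chemokine, was at 141 CPM in NAPH and 280 CPM in Control (0.504, 0.424 to 0.597), but 56.4% of its NAPH UMIs lay in 3 cells and the ratio without the barcodes that stand apart was 0.227. Mt2, a metallothionein, had a ratio of 0.423 (0.324 to 0.548), and 0.258 without those barcodes. It was found in similar shares of members, 17.8% in NAPH and 16.4% in Control. Its UMIs lay in few cells, with 47.0% in 3 cells in NAPH and 32.5% in 3 cells in Control. The ratios of Bhlhe40, Pglyrp1, Phlda1, Ryr1 and Mndal lay between 0.483 and 0.558, Mndal being one of a family of close copies.

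**Figure D3:**
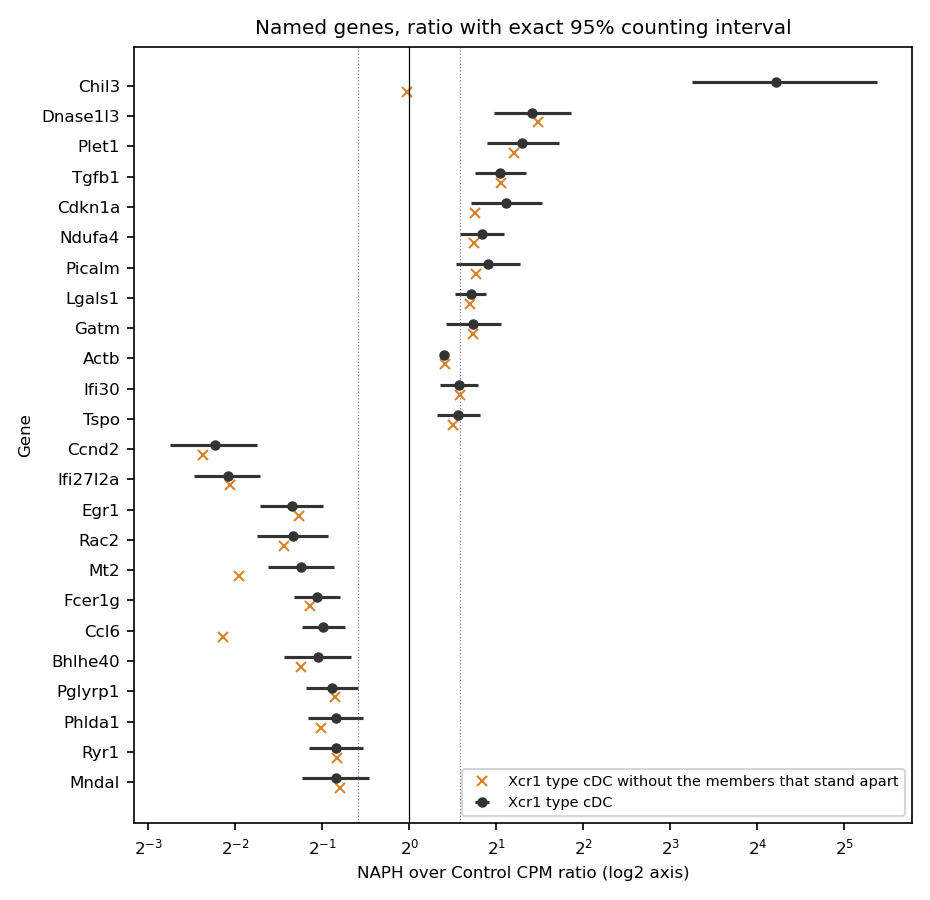
NAPH over Control ratio of summed CPM in members, on a log2 axis, for the 12 highest and 12 lowest genes by the naming rule, with exact 95% counting intervals (circles) and the ratio without the 6 barcodes that stand apart (crosses). Dotted lines mark the 1.5-fold limits. Chil3 is at 0.979 without those barcodes, while Dnase1l3, Plet1 and Tgfb1 stay above 2.

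In cells with Cd209a and Mgl2, 9.86% of genes with at least 50 UMIs were at least 1.5 times higher in NAPH and 5.72% lower, or 9.5% and 6.62% without the later limit on choosing genes. Part of the pattern was also seen there: Ccnd2 had a ratio of 0.383 (0.283 to 0.516), Ifi27l2a 0.546 (0.452 to 0.660) and Tgfb1 1.44 (1.08 to 1.95). Without that limit these 3 ratios were 0.443, 0.648 and 1.45, on the same side of 1. Rac2 depended on that limit, at 0.801 (0.682 to 0.942) with it and 1.22 (1.04 to 1.42) without it, and so did Fcer1g, at 1.02 and 1.23, so neither gives a firm direction in those cells. Dnase1l3 had 1 UMI in NAPH and 3 in Control there, too few for a comparison. Without that limit the group held 151 NAPH and 87 Control cells in place of 144 and 55, the added ones having at least 6 choosing UMIs. Dnase1l3 then had 3 UMIs in NAPH and 23 in Control (0.0799, 0.0154 to 0.264). That ratio includes the added barcodes, so it gives no direction for the cells with fewer choosing UMIs.

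Immediate early genes respond quickly to stimulation or handling. Of 20 with at least 10 UMIs, 3 were higher and 5 lower in NAPH members, beside 12.8% and 12.5% of all genes, with a median log2 ratio of -0.42. Egr1 was at 62.2 CPM in NAPH and 158 CPM in Control (0.394, 0.305 to 0.504), and Fosb at 64.3 and 104 CPM in NAPH and Control (0.617, 0.472 to 0.802). Klf2 and Nr4a1 had ratios of 0.643 (0.536 to 0.771) and 0.563 (0.387 to 0.810). Socs3 was the highest, at 47.5 CPM in NAPH and 18.4 CPM in Control (2.59, 1.64 to 4.17). Lower values were also seen in other myeloid cells. In cells with Cd209a and Mgl2 the list had a median log2 ratio of -0.39 and Fosb a ratio of 0.611, and Egr1 was at 0.416 (0.328 to 0.529), or 0.501 (0.401 to 0.624) without the later limit on choosing genes. In alveolar macrophages Egr1 had 3 UMIs in NAPH and 36 in Control (0.289, 0.0570 to 0.916). In epithelial barcodes of the same libraries, Egr1 and Fosb lay on the other side of 1, with ratios of 1.95 and 1.54. The part of cell handling in these values was not tested.

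The MHC class II and MHC class I presentation lists both had a median log2 ratio of -0.04, beside 0.01 for all genes. None of 13 MHC class II presentation genes passed the limit in either direction. Beside this, 12.8% of all genes with at least 10 UMIs were higher and 12.5% lower, or 4.86% and 5.28% with at least 50 UMIs. Cd74 had 33286 UMIs in NAPH and 32419 in Control (1.09, 1.08 to 1.11). Of 23 MHC class I presentation genes, none was higher and 3 were lower, beside 12.8% and 12.5% of all genes: H2-Q4 (0.490), H2-Q6 (0.542) and H2-Q7 (0.623). These last genes are near copies of one another, and no source used here states how reads were split among them. The transporter gene Tap1 had 133 UMIs in NAPH and 140 in Control (1.01, 0.792 to 1.29).

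The rule capped Ccr7, Il4i1 and Fscn1, so mature dendritic cells lay outside the members. Of 18 maturation genes with at least 10 UMIs, 4 were higher and none lower, beside 12.8% and 12.5% of all genes, with a median log2 ratio of 0.12. The capped gene Il4i1, with 11 UMIs in NAPH and 14 in Control, is among the 18. The costimulator Cd40 had 24 UMIs in NAPH and 8 in Control (3.20, 1.39 to 8.23), while Cd86 had 220 and 219 in NAPH and Control (1.07, 0.884 to 1.30). Icam1 had a ratio of 1.90, and 1.37 without the barcodes that stand apart.

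Interferon response genes moved in both directions, with 6 higher and 7 lower of 22, beside 12.8% and 12.5% of all genes, and a median log2 ratio of -0.17. Ifitm3 was at 21.0 CPM in NAPH and 68.9 CPM in Control (0.304, 0.196 to 0.461), and Stat2 at 27.3 and 10.5 CPM in NAPH and Control (2.60, 1.42 to 4.98). Among chemokine and cytokine receptors, 1 of 23 was higher and 2 were lower, below the shares of all genes (12.8% and 12.5%). Ccr2, which guides cells from blood into tissue, was at 308 CPM in NAPH and 447 CPM in Control (0.689, 0.610 to 0.778), short of the limit. Uptake receptors gave 5 higher and 4 lower of 17, beside 12.8% and 12.5% of all genes. Axl, a receptor for dying cells, was at 24.5 CPM in NAPH and 66.9 CPM in Control (0.366, 0.242 to 0.542), and Timd4, another, at 30.8 and 51.8 CPM in NAPH and Control (0.593, 0.401 to 0.869).

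Of 20 cholesterol synthesis genes with at least 10 UMIs, 10 were higher and 1 lower, beside 12.8% and 12.5% of all genes, with a median log2 ratio of 0.53. Fdps had 49 UMIs in NAPH and 21 in Control (2.49, 1.46 to 4.36), and Pmvk had 115 and 56 in NAPH and Control (2.19, 1.58 to 3.07). Both lay within reach of free RNA, as did 7 of the 20, and in epithelial barcodes their ratios were 3.70 and 11.2. Of the 13 genes outside that reach, 4 were higher and 1 lower, with a median log2 ratio of 0.24. Msmo1 was one of these 4, with 24 UMIs in NAPH and 11 in Control (2.32, 1.10 to 5.26).

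**Figure D4:**
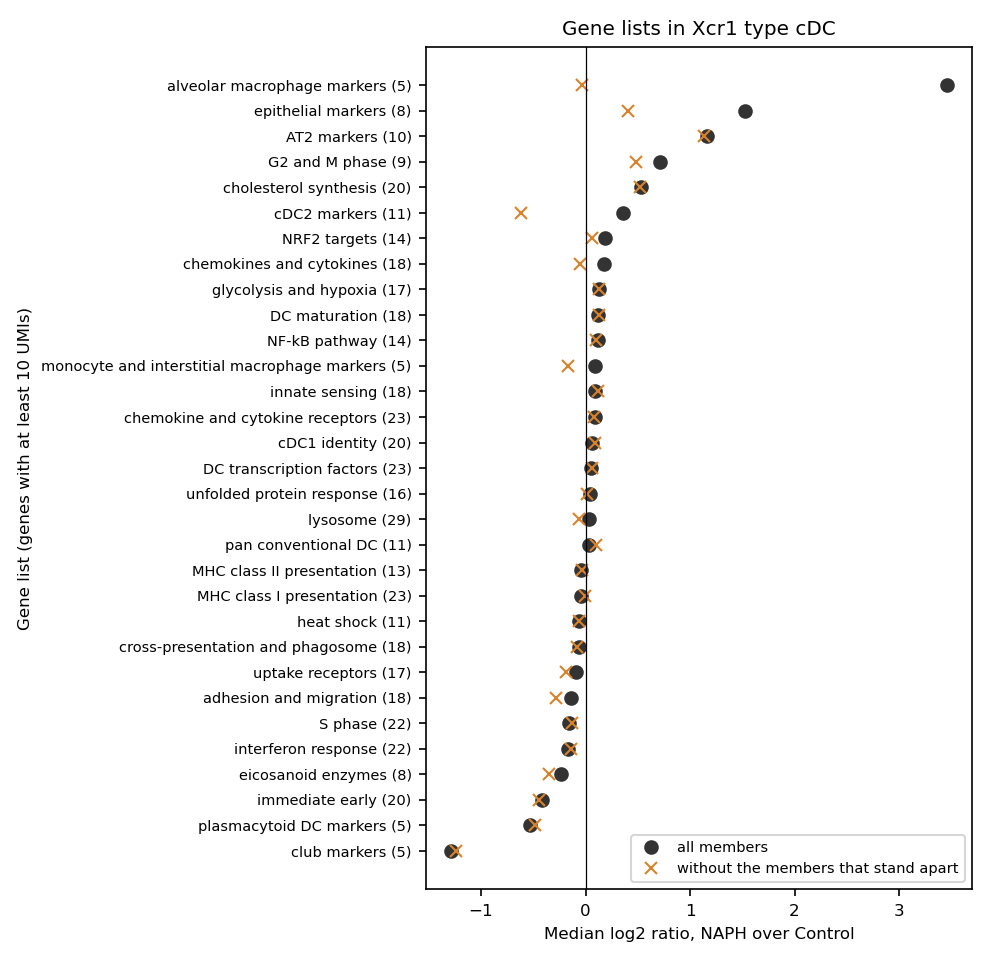
Median log2 ratio, NAPH over Control, of gene lists in members, with the number of genes with at least 10 UMIs in parentheses, for all members (circles) and without the 6 barcodes that stand apart (crosses). Identity and antigen presentation lists lie near 0, and the alveolar macrophage list moves to -0.030 without those barcodes.

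Markers of other cells were also summed. Alveolar macrophage genes summed to 192 CPM in NAPH and 26.9 CPM in Control. Of 5 with at least 10 UMIs, 4 were higher in NAPH and none lower, beside 12.8% and 12.5% of all genes. Ear2, which the membership rule capped, was among these 4, with 27 UMIs in NAPH and 14 in Control. The median log2 ratio of the list was 3.46, and -0.030 without the barcodes that stand apart. Genes of T and NK cells, neutrophils, and mast cells and basophils had at most 5 UMIs a list in either library, and Cd3e and Cd79a were at 0. Of the B cell markers, 2 had at least 10 UMIs and lay on opposite sides of 1. Ighm, an immunoglobulin gene also transcribed in some dendritic cells, had 160 UMIs in NAPH and 258 in Control (0.661, 0.539 to 0.808). Igkc, an immunoglobulin light chain gene, had 31 UMIs in NAPH and 0 in Control, at least 11.01-fold higher against a floor of 3 counts, and lay within reach of free RNA. All 10 alveolar type 2 genes lay within reach of free RNA, with a median of 1.17, and so did the 5 club genes with at least 10 UMIs, with a median of -1.29.

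Within the members, Cd207 divided the cells into 81 with and 71 without a UMI in NAPH, and 95 and 88 in Control. The split was chosen after the data were seen and follows the counts of a sparse gene, so the differences are a description. Median depth was 9225 UMIs with and 8668 without Cd207 in NAPH, and 8320 and 7968 in Control. Cells with both Cd207 and Itgae were 45.4% (37.3 to 53.7) of NAPH members and 42.1% (34.8 to 49.6) of Control members, and cells with neither were 8.55% and 15.8% in NAPH and Control.

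Cells with Cd207 held more of the chemokine Ccl17, which attracts Ccr4-bearing T cells. In NAPH it was at 1322 CPM with Cd207 and 418 CPM without (3.16, 2.76 to 3.63), and in Control at 989 CPM with and 597 CPM without (1.66, 1.47 to 1.87). Ccl22, its neighbour in function, had ratios of 6.82 (3.41 to 15.5) in NAPH and 2.12 (1.29 to 3.56) in Control. Epcam was higher with Cd207 in both libraries, at ratios of 1.86 (1.36 to 2.56) in NAPH and 1.72 (1.33 to 2.25) in Control. Dnase1l3 was also higher with Cd207 in both. So was Xcr1, a gene that chose the members, at 1.37 (1.06 to 1.77) in NAPH and 1.35 (1.04 to 1.75) in Control. Itgae had ratios of 0.929 (0.732 to 1.18) in NAPH and 0.997 (0.777 to 1.28) in Control, close to 1.

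Rac2 and Ccl6 were lower in cells with Cd207 in both libraries. Rac2 had ratios of 0.297 (0.166 to 0.512) in NAPH and 0.621 (0.458 to 0.837) in Control. Ccl6 had ratios of 0.161 (0.108 to 0.234) in NAPH and 0.608 (0.498 to 0.740) in Control, and the NAPH value was 0.483 (0.305 to 0.755) without the barcodes that stand apart. The metallothioneins held up in Control alone. Mt1 had ratios of 0.599 (0.508 to 0.705) in NAPH and 0.468 (0.397 to 0.551) in Control, but without those barcodes the NAPH interval included 1 (0.874, 0.727 to 1.05). Mt2 turned round in NAPH, at 0.610 with and 1.32 (0.716 to 2.51) without them, and was at 0.313 (0.226 to 0.428) in Control. In Control, 32.5% of the Mt2 UMIs of all members lay in 3 cells. The ratios of Ccl17, Ccl22, Epcam, Dnase1l3 and Xcr1 stayed above 1 in both libraries without those barcodes, that of Xcr1 in NAPH only just (1.30, 1.006 to 1.69). The share of members with Cd207 was 53.3% in NAPH and 51.9% in Control.

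**Figure D5:**
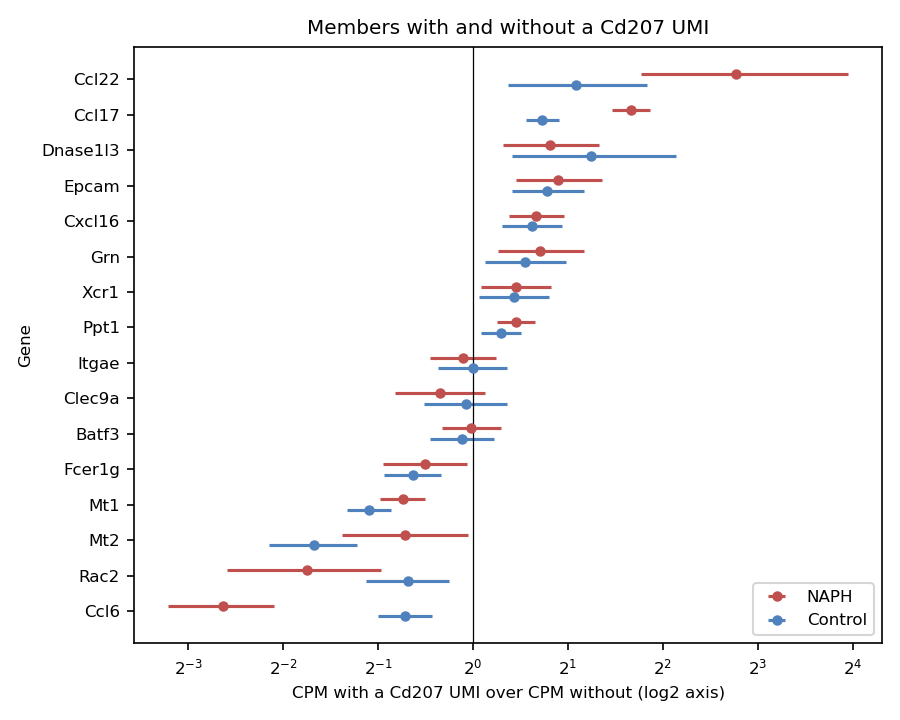
Ratio of summed CPM in members with a Cd207 UMI over members without, on a log2 axis with exact 95% counting intervals, NAPH above Control for each gene. Ccl22, Ccl17 and Epcam lie above 1 in both libraries, and Ccl6 and Rac2 below 1, Ccl6 in NAPH being at 0.483 without the barcodes that stand apart.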

How the data were processed

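The authors deposited whole-number UMI counts, not normalized, for 1 NAPH and 1 Control library. Per the submitters' processing notes they were made with Cell Ranger (version not given in the sources used) against mm10. All barcodes were used, and UMIs were summed over members per library and scaled to CPM, with Python 3.11.15, numpy 2.4.6, scipy 1.17.1 and pandas 2.3.3. A 3' count needs no scaling by gene length. Where a library had none, 3 counts stood in. A gene was within reach of free RNA when the highest share of 9 epithelial genes, times its level in other barcodes, passed 0.2 of its UMIs in the library where it was higher. Named genes had at least 50 UMIs and 100 CPM in a library, ranked by the interval bound nearest to 1, 12 each way, with ribosomal, mitochondrial, haemoglobin, X- or Y-linked and unnamed predicted genes and those within reach of free RNA passed over. List members and other genes named from lists were also chosen after their values were seen. Of 28692 gene IDs, 28339 were found in GENCODE vM21. No doublet caller was used in the main values: Scrublet (scanpy 1.11.5) marked 0 NAPH and 8 Control barcodes (0.243%) by its own threshold, so an expected rate of 0.8% per 1000 barcodes served as an alternative. Scaling alternatives used edgeR 4.0.16 and DESeq2 1.42.0 in R 4.3.3. The ratio step was tested on simulated data. The members and lists were chosen with earlier results of these data known. The rule for the Cd209a and Mgl2 cells and mature dendritic cells was narrowed after their values were seen, to leave out barcodes with at least 6 choosing UMIs, and both versions are reported.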

Additional observations from a re-analysis of the deposited data

Results flagged for a closer look

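The metallothionein Mt2 had ratios on opposite sides of 1 in members and in cells with Cd209a and Mgl2, but the latter interval includes 1. Its NAPH over Control ratio was 0.423 (0.324 to 0.548) in members and 1.57 (0.773 to 3.51) in the other cells, which held 41 NAPH and 10 Control UMIs. The difference was not tested. It appeared only after barcodes with at least 6 choosing UMIs were left out of the comparison group. In that group as first computed, which still held those barcodes, there were 42 NAPH and 66 Control UMIs. The ratio was then 0.390 (0.258 to 0.583), in the same direction as in members. Mt2 was higher in NAPH in alveolar macrophages, at 15.5 (9.61 to 26.3), and in epithelial barcodes, at 3.44 (3.28 to 3.61).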

How the results depend on the processing

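No paired analysis was possible because each group has 1 library. The ratio of shares of barcodes stayed between 0.680 and 0.775 under 7 alternatives. The share of the myeloid groups gave 0.858 (0.688 to 1.07) with the comparison groups as first computed and 0.797 (0.639 to 0.994) after they were narrowed, a choice made after seeing the data. Counts of genes past 1.5-fold followed the filter: 697 higher and 668 lower of 7202 with at least 20 UMIs, 84 and 88 of 2750 with at least 100, and 143 and 137 of 2557 after thinning to 4000 UMIs. Of 530 gene ratios recomputed, 502 stayed within the main interval, 23 moved out of it and 5 reversed. Chil3 was 0.924 with at least 10 choosing UMIs and 0.979 without the barcodes that stand apart. Cybb, at 3.55 in the main values, was 0.352 and 0.367 under these and 0.340 with at least 1 Xcr1 UMI. The alveolar macrophage list median was -0.11 and -0.030 under the first pair. The cDC2 list, at 0.35, was -0.43 with at least 1 Xcr1 UMI, -0.12 without Scrublet doublets, -0.62 without the barcodes that stand apart and -0.30 without genes within reach of free RNA. The cause was not tested. Leaving out those barcodes and applying the rule after thinning to 3500 UMIs were also chosen after seeing the data. With 1 library a group, differences between animals and libraries cannot be told apart from those between conditions.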
